A study of Mus musculus with 3 samples.

Results

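A list of 10 genes of inflammation was followed through the conversion of cultured mouse muscle cells. It holds the chemokine genes Ccl2, Ccl7, Cxcl1, Cxcl5, Cxcl10 and Cxcl12, the cytokine genes Il6, Il1a and Lif, and the acute-phase gene Saa3. The list was given by name, and every non-control probe whose RefSeq accession belongs to one of these genes was taken. That gave 12 probes for 9 of the 10 genes, among 18352 genes that could be named on an array of 41174 probes. Ccl7, Cxcl12 and Il1a had 2 probes each, and no probe could be named for Lif, which was not analysed here.

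RNA of C2C12 cells, mouse muscle precursors that form multinucleated myotubes in low serum, was hybridised to one-colour Agilent whole mouse genome arrays, 1 array for each of 3 groups. The first group was untreated myoblasts. The second group, here named BIO cellulates, was made from myotubes. These had formed in 2% horse serum over 8 days, with AraC at 10 µM on days 2 to 4 to kill leftover myoblasts. They were then split into single cells (cellulates) with the microtubule drug myoseverin and given BIO, an inhibitor of the kinase GSK-3, for 2 days. The third, called neurogenic cellulates here, was the same kind of culture followed by 7 days in neurogenic medium, including 48 h of reversine at 250 nM and all-trans retinoic acid at 1.5 µM. The labels disagree on doses: BIO is 2.5 µM in the sample names and 10 µM in the series text and protocol, and myoseverin is 20 µM in the series text and 30 µM in the protocol. The design compares cellulates with the myoblasts they came from and asks what neurogenic medium adds. Myotubes without drugs and cellulates without BIO were not analysed here, so the single steps cannot be told apart. With 1 array a group no difference has an error between cultures and no test was made. Precision is limited by having only 3 arrays.

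Chemokines are small secreted proteins that draw leukocytes along a gradient, and they are named by the spacing of their first cysteines, adjacent in the CC family and split by a single residue in the CXC family. Ccl2 and Ccl7 encode monocyte attractants that act on the receptor CCR2, Cxcl1 and Cxcl5 encode neutrophil attractants that act on CXCR2, Cxcl10 encodes an interferon-induced ligand of CXCR3, and Cxcl12 encodes the ligand of CXCR4 and of the scavenging receptor ACKR3. Il6 encodes a cytokine that signals through gp130 and STAT3 and that contracting or injured muscle secretes, Il1a an alarm cytokine that acts through the IL-1 receptor, and Saa3 a serum amyloid A protein made outside the liver. Many of these genes are classic targets of NF-kB and C/EBP factors.

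RefSeq promoter windows of assembly GRCm38.p6, from 250 bases before to 50 bases after the annotated transcription start, were matched by symbol to 7 of the 10 genes: Cxcl1, Cxcl10, Cxcl12, Il1a, Il6, Lif and Saa3. The windows of 4 are shown, because Il6 and Saa3 gave more signal in neurogenic cellulates than in myoblasts, Cxcl1 was well above background in myoblasts alone, and Cxcl10 belongs to the interferon-stimulated genes described below. Each runs 5′ to 3′ on the strand of the gene. Capitals mark matches on either strand to an NF-kB pattern (GGG, then 3 free bases, then TNCC), an interferon-stimulated response element or ISRE (TTTC, 2 free bases, TTTC) or a C/EBP pattern (TTGCNNAA).
Cxcl1 (chr5:90890995-90891294, plus strand): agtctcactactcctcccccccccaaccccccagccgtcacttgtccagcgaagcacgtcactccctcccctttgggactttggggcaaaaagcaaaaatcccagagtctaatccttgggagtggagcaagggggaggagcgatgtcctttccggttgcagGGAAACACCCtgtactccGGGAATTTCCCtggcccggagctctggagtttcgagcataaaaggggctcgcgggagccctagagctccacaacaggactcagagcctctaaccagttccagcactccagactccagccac
Cxcl10 (chr5:92348840-92349139, minus strand): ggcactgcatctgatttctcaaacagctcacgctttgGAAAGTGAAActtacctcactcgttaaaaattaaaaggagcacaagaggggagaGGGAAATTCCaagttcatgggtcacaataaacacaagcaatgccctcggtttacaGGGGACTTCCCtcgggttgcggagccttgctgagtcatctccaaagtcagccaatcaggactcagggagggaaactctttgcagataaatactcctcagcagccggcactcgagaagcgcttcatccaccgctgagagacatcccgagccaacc
Il6 (chr5:30012864-30013163, plus strand): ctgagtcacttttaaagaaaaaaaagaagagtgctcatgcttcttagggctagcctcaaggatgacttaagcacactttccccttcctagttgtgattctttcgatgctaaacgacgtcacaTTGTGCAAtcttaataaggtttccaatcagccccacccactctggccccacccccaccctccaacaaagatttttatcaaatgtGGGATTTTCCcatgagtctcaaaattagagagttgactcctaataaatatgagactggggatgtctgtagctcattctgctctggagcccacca
Saa3 (chr7:46715627-46715926, minus strand): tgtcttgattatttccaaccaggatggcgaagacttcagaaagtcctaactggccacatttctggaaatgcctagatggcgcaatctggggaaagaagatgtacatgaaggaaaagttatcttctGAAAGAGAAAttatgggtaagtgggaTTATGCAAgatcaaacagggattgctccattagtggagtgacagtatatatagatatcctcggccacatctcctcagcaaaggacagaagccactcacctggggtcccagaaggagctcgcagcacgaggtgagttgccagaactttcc

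The NF-kB pattern matched 4 of the 7 windows (Cxcl1, Cxcl10, Il6 and Lif), against 17.4% of the 32851 mouse windows of the same length in the table. In Cxcl1 there were 3 matches, of which the pair at 71 and 70 bases before the start overlap on opposite strands. Cxcl10 had 4, of which the 3 at 104 and 103 bases before the start overlap. The Il6 match GGGATTTTCC began 44 bases before the start. The ISRE pattern matched Cxcl10 and Saa3, against 3.44% of all windows, and the C/EBP pattern matched Il6 and Saa3, against 10.8%. An AP-1 pattern (TGANTCA) matched Cxcl10, Il1a, Il6 and Lif, against 7.81% of windows, and a STAT pattern (TTCNNNGAA) matched none of the 7. A TATAAA match on the sense strand, found in 8.32% of windows, was in Il1a alone, 32 bases before its start. No window of Ccl2, Ccl7 or Cxcl5 was analysed. A match is a run of letters and no evidence that a factor binds.

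**Figure D1:**
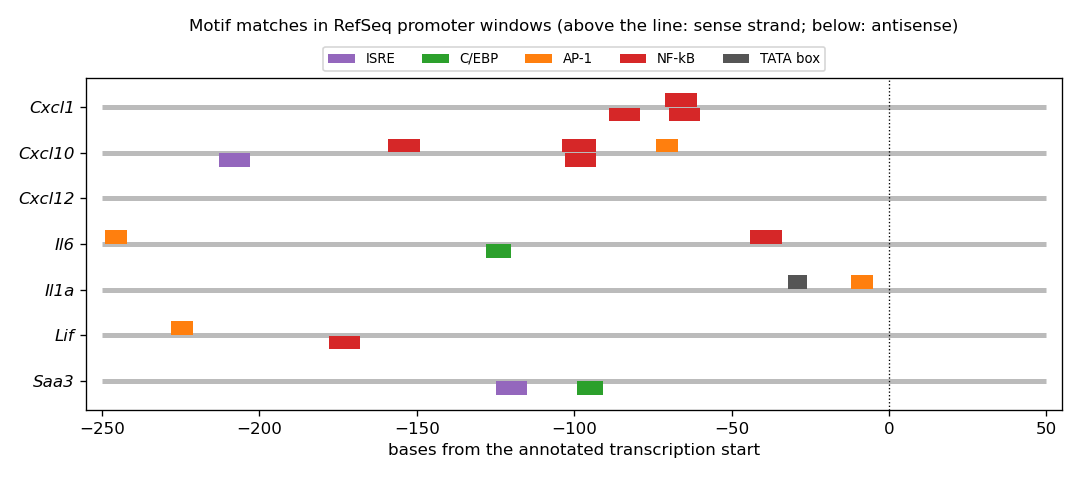
Matches to 5 patterns in the promoter windows of 7 genes, by distance in bases from the annotated transcription start (dotted line). Bars above a line are matches on the sense strand and bars below it on the antisense strand. Cxcl10 carries NF-kB, ISRE and AP-1 matches, Saa3 carries ISRE and C/EBP matches and Cxcl12 none.

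Signals below are processed intensities in scanner units, and scaled signals are their log2 minus the log2 75th percentile of that array, at 181 units in myoblasts, 115 in BIO cellulates and 156 in neurogenic cellulates. A fold is a ratio of scaled signals. The scanner software called between 45.7% and 50.7% of 43379 non-control spots well above background on an array, and 0 saturated. The lowest signals called well above background were 13.6, 17.3 and 26.2 units on the 3 arrays in that order, or -3.73, -2.73 and -2.57 as scaled log2 signals. Where a probe passed background on only 1 of 2 arrays, its fold is written "at least": the signal that passed was set against that lowest signal on the dim array, or against the dim probe's own signal if higher. Because the lowest scaled signal was that of myoblasts, a gene measured in cellulates alone reaches 2-fold against myoblasts nearly by construction. Within an array, 122 probes spotted 10 times and well above background throughout gave the only repeat measure. From their spread, 95% of spot-to-spot differences stay under a limit of 1.40-fold in the first comparison (BIO cellulates over myoblasts), 1.34-fold in the second (neurogenic over BIO cellulates) and 1.35-fold in the third (neurogenic cellulates over myoblasts). This limit holds none of the spread between cultures.

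Ccl7, Ccl2, Il6 and Cxcl12 were well above background on all 3 arrays. Ccl7, Ccl2 and Il6 were lowest in myoblasts and highest in neurogenic cellulates, whereas Cxcl12 had the reverse order. Il1a was well above background in myoblasts and BIO cellulates, Cxcl1 in myoblasts alone and Saa3 in neurogenic cellulates alone. The signals of Cxcl5 and Cxcl10 were below that call on all 3.

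**Figure D2:**
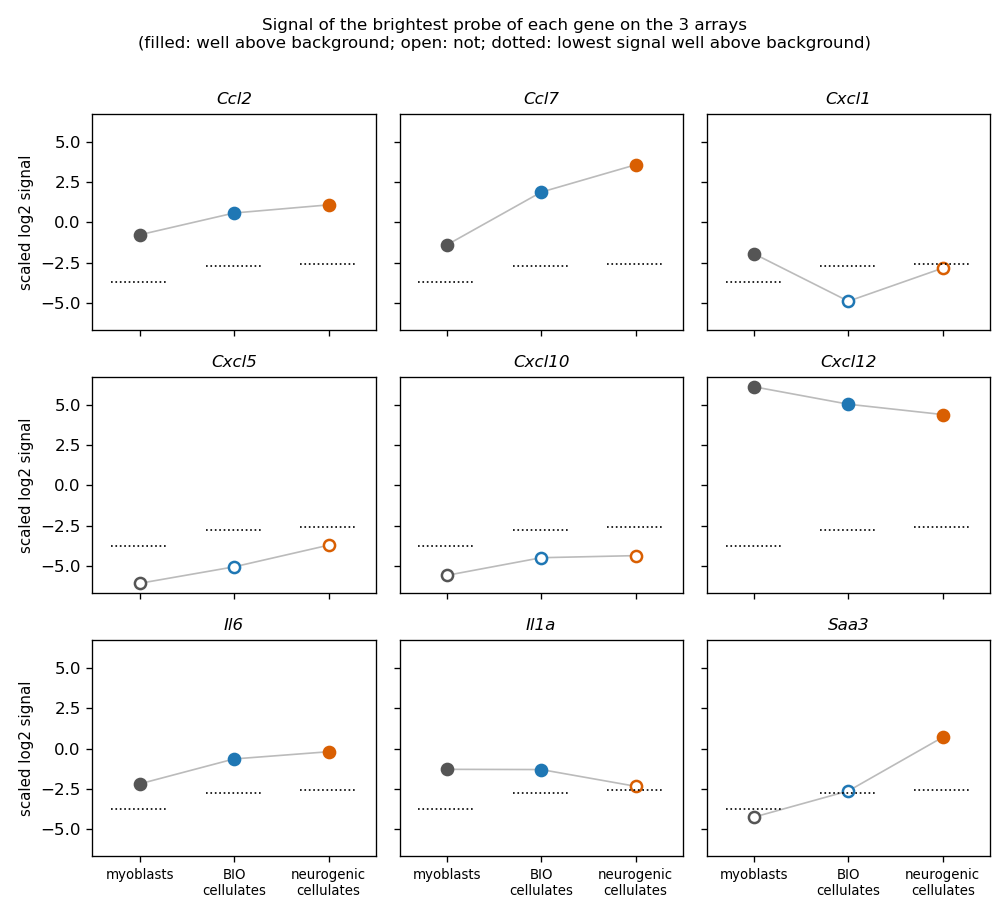
Scaled log2 signal of the brightest probe of 9 genes on the 3 arrays, 1 point per array. Filled points are well above background, open points are not, and the dotted bars give the lowest signal well above background on each array. Ccl7 climbs from -1.41 to 3.56, Cxcl12 declines from 6.12 to 4.40, and Saa3 is filled in neurogenic cellulates alone.

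Ccl7, a monocyte chemokine gene, had the widest range of the 4 genes measured on every array. Its brighter probe read 68.1 units in myoblasts, 419 in BIO cellulates and 1840 in neurogenic cellulates, and the scaled log2 signals were -1.41, 1.87 and 3.56. Each array was thus above the one before by far more than the repeat-spot limit. Ccl7 was 9.68-fold higher in BIO cellulates than in myoblasts, 3.24-fold higher in neurogenic than in BIO cellulates and 31.4-fold higher in neurogenic cellulates than in myoblasts. After normexp background correction the log2 differences from myoblasts were smaller, 2.26 in place of 3.28 and 3.90 in place of 4.97, and with median scaling they were 2.56 and 4.24. The second Ccl7 probe read 3.34, 4.11 and 21.8 units and was not well above background on any array, so it gives no fold.

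Ccl2, the other CC chemokine gene, had a probe printed 10 times on each array. Its spots ran from 54.7 to 180 units in myoblasts (median 130), from 79.0 to 282 in BIO cellulates (median 209) and from 197 to 384 in neurogenic cellulates (median 319). The mean scaled log2 signals over spots without an outlier flag were -0.78 ± 0.70 (SD, 10 spots), 0.57 ± 0.63 (10 spots) and 1.08 ± 0.19 (8 spots), so neighbouring arrays overlapped in single spots while myoblasts and neurogenic cellulates did not. Ccl2 was 2.55-fold higher in BIO cellulates than in myoblasts and 3.62-fold higher in neurogenic cellulates than in myoblasts. Against BIO cellulates the neurogenic array was 1.42-fold higher, or 1.22-fold over the 8 positions unflagged on both.

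The spread of Ccl2 followed position on the slide. Of the 122 repeated probes it had the largest SD between spots on the myoblast array and on the BIO array. In myoblasts the 4 spots in the lower-numbered rows read 54.7 to 63.9 units and the other 6 read 117 to 180. The split of rows was chosen after the values were seen. Set spot against spot at the same position, all 10 were higher in BIO cellulates than in myoblasts, by 0.97 to 1.88 on the log2 scale, and 9 of the 10 by 2-fold. The mean log2 difference was 1.45 in the lower-numbered rows and 1.29 in the others. Between neurogenic and BIO cellulates it was 0.74 and 0.12, and 0 of the 10 positions reached 2-fold. The part of slide position in the Ccl2 levels was not tested further.

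Il6 also had 10 spots and these were tighter. They ran from 36.4 to 45.8 units in myoblasts (median 40.0), from 65.0 to 192 in BIO cellulates (median 74.2) and from 124 to 149 in neurogenic cellulates (median 139). The spot at 192 units carried an outlier flag, and the highest of the other 9 was 95.9. Mean scaled log2 signals were -2.18 ± 0.11 (SD, 10 spots), -0.63 ± 0.17 (9 spots) and -0.18 ± 0.09 (10 spots). No myoblast spot reached the range of either cellulate array, while the top of the BIO range (-0.26) lay inside the neurogenic range (-0.32 to -0.06). Il6 was 2.92-fold higher in BIO cellulates and 3.98-fold higher in neurogenic cellulates than in myoblasts, and 1.36-fold higher in neurogenic than in BIO cellulates. At the 9 positions unflagged on both arrays, the first of these differences was 1.57 ± 0.20 (SD) on the log2 scale and the last 0.44 ± 0.13.

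**Figure D3:**
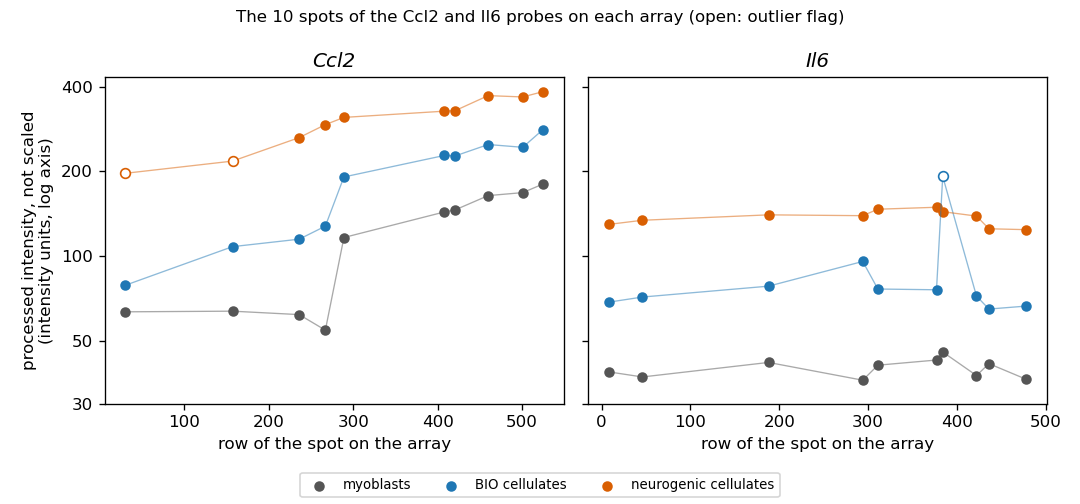
Processed intensity, before scaling, of the 10 spots of the Ccl2 and Il6 probes against the row of the spot, on a log axis, with 1 colour per array and open points for spots with an outlier flag. Ccl2 signals are higher in the higher-numbered rows of each array, with a range of 54.7 to 180 units in myoblasts, while Il6 signals stay level apart from the flagged BIO spot at 192.

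Cxcl12, which encodes a chemokine that retains and guides CXCR4-bearing cells, was bright in all cultures and declined. Its brighter probe read 12606 units in myoblasts, 3782 in BIO cellulates and 3285 in neurogenic cellulates, with scaled log2 signals of 6.12, 5.04 and 4.40. Both cellulate arrays lay below the myoblast array by more than the repeat-spot limit. Cxcl12 was 2.12-fold lower in BIO cellulates and 3.30-fold lower in neurogenic cellulates than in myoblasts, and 1.56-fold lower in neurogenic than in BIO cellulates. The first of these fell short of 2-fold after quantile normalisation, at a log2 difference of -0.91. The second probe, for another transcript, read 4.84, 4.71 and 7.06 units and was dim throughout.

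The neutrophil chemokine genes were low. Cxcl1 read 46.7 units in myoblasts and 3.86 and 21.7 units, both dim, in BIO and neurogenic cellulates. Compared with myoblasts, Cxcl1 was thus at least 1.72-fold lower in BIO cellulates, and in neurogenic cellulates the bound was 1.54-fold. These bounds nearly vanished after normexp correction, at log2 values of -0.08 and -0.12, and the second was -0.08 with spike-in scaling. The 50 units that normexp adds exceed each of these Cxcl1 signals. Cxcl5 read 2.70, 3.48 and 12 units in the order of the groups, and Cxcl10 read from 3.80 to 7.64 units, lowest in myoblasts. All 6 values were dim, and no fold is given.

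Il1a, the alarm cytokine gene, read 74.7 units in myoblasts, 47.0 in BIO cellulates and 31.0 in neurogenic cellulates, the last not well above background. Scaled log2 signals were -1.28, -1.29 and -2.33, so myoblasts and BIO cellulates differed by less than the repeat-spot limit. Il1a was at least 2.05-fold lower in neurogenic than in BIO cellulates, and the bound against myoblasts was 2.07-fold. These bounds pass 2-fold narrowly, and with spike-in scaling the log2 bounds were -0.70 and -0.51. Its second probe, at 3.15 to 5.92 units, was dim on all arrays.

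Saa3, the acute-phase gene, had 1 probe. It read 9.57 units in myoblasts and 18.7 in BIO cellulates, both dim, and 256 in neurogenic cellulates. Only the neurogenic array was well above background. Saa3 was at least 10.1-fold higher there than in BIO cellulates and at least 21.9-fold higher than in myoblasts. After normexp correction these bounds came down from 3.33 to 1.37 and from 4.45 to 2.13 on the log2 scale. Among the 19317 probes dim on both other arrays, 703 (3.64%) were well above background on the neurogenic array, compared with 728 of 19342 (3.76%) for the BIO array and 2242 of 20856 for the myoblast array counted likewise, and 28 (0.145%) passed 8-fold, compared with 1 probe on the BIO array and 2 on the myoblast array. Where such a dim probe had a sister probe of the same gene that was bright on all arrays, 192 of 2361 (8.13%) were well above background on the neurogenic array, 81 of 2250 (3.60%) on the BIO array and 423 of 2592 (16.3%) on the myoblast array. The Saa3 probe was among the 703 and among the 28. It has no sister probe, so its signal could not be checked against one.

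In counts, the first comparison gave 3 of 6 compared genes at least 2-fold higher (Ccl7, Il6 and Ccl2), where 11.2% of all 12832 compared genes were, and 1 lower (Cxcl12), where 6.01% were. Of the 5 listed genes measured on both arrays 3 were higher and 1 lower, beside 8.43% and 6.13% of all genes so measured. The median log2 difference was 0.67 over the 6 genes and 0.00 over all. The second gave 2 of 6 higher (Saa3 and Ccl7), against 4.16% of 12258 genes, and 1 lower (Il1a), against 1.79%, with medians of 0.48 and -0.17. Of the 4 listed genes measured on both arrays 1 (Ccl7) was higher and 0 lower, beside 2.45% and 1.41% of all genes so measured. The third gave 4 of 7 higher (Ccl7, Saa3, Il6 and Ccl2), against 12.1% of 12858 genes, and 2 lower (Cxcl12 and Il1a), against 10.0%, with medians of 1.86 and -0.06. Of the 4 listed genes measured on both arrays 3 were higher and 1 (Cxcl12) lower, beside 9.35% and 11.0% of all genes so measured. Saa3 and Il1a are not among these, as each was dim on 1 of the 2 arrays. The 3 comparisons share arrays and are not independent, and the genes that passed the background filter are not all 10. With each array scaled to its median, which moved the median gene from 0.00 to -0.66, Il6 and Ccl2 fell under 2-fold in BIO cellulates against myoblasts, with log2 differences of 0.83 and 0.64. After normexp correction they were 0.86 and 0.89.

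**Figure D4:**
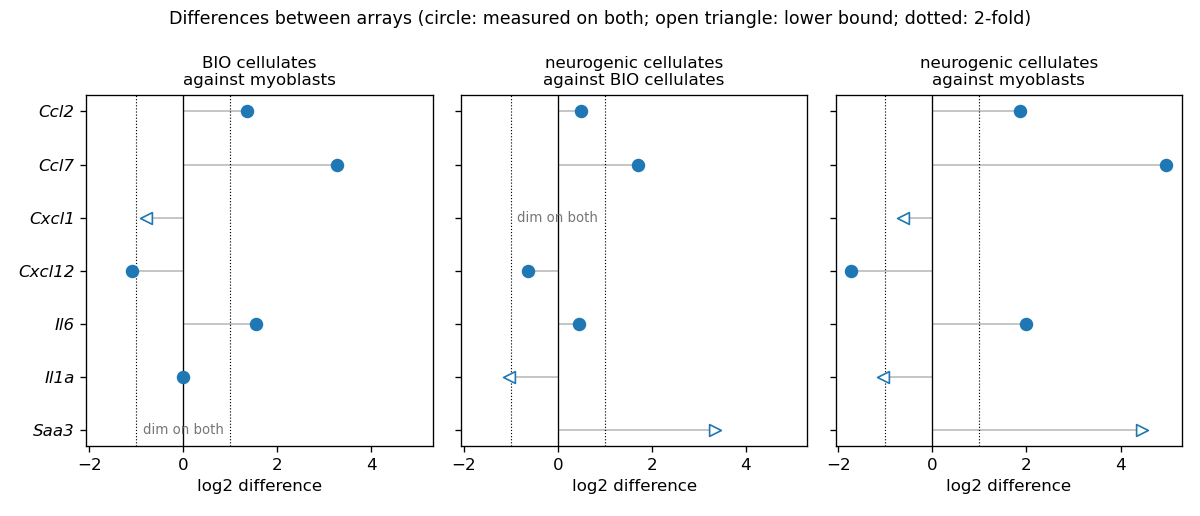
Log2 difference in scaled signal for 7 genes in the 3 comparisons. Circles are genes measured on both arrays, open triangles are lower bounds that point away from 0, and dotted lines mark 2-fold. Ccl7 lies past 2-fold on the higher side in each panel, and Cxcl12 lies on the lower side throughout, at -1.08, -0.64 and -1.72.

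Receptors and other ligands of the same pathways came from lists made for this work. Of 24 receptor genes, all with a probe, 13 were compared in BIO cellulates against myoblasts, with 2 higher and 2 lower, beside 11.2% and 6.01% of all genes. The lower ones were Il1r1, the receptor for IL-1 (3.11-fold), and Ackr3, the scavenging receptor for CXCL12 (2.79-fold). Ackr3 read 6401, 1456 and 1732 units on the 3 arrays in the order of the groups, and Il1r1 read 693, 142 and 111. Against myoblasts, Il1r1 was 5.38-fold and Ackr3 3.18-fold lower in neurogenic cellulates, and Lifr, the receptor for LIF, was 2.04-fold lower by its brightest probe. A second Lifr probe was 2.67-fold lower, but another, dim in myoblasts, was at least 2.47-fold higher, so its probes disagree. Cxcr4, which encodes the signalling receptor for CXCL12, had scaled log2 signals of -1.53, -1.19 and -1.54. Ccr3, a chemokine receptor gene, was 2.77-fold higher and Osmr, the oncostatin M receptor gene, 2.20-fold higher in BIO cellulates than in myoblasts. Both were near background, at 26.8 and 20.5 units in myoblasts, and the second probe of each was dim on all arrays. Osmr was dim again in neurogenic cellulates. Ccr2, Cxcr2 and Cxcr3, whose receptors were named above for the other chemokines, were dim on all arrays. Further receptors of those chemokines were not looked at one by one. Il6ra, the receptor chain that binds IL-6, had log2 differences of 0.41 and -0.49 in the first and second comparisons. Il6st, which encodes gp130, was at least 3.26-fold higher, and the TNF receptor gene Tnfrsf1a at least 8.79-fold higher, in neurogenic cellulates than in myoblasts. Their probes, like that of Saa3, were well above background on the neurogenic array alone. In the second comparison 1 of 15 receptors was higher, beside 4.16% of all genes, Tnfrsf1a by at least 4.39-fold, and 0 were lower.

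Of 42 other cytokine and chemokine genes, 41 had a probe. In BIO cellulates against myoblasts 4 of 19 were higher, beside 11.2% of all genes, and 0 lower, but only 2 of 12 among those measured on both arrays, beside 8.43%. The higher ones included Il12a (at least 3.86-fold), Il10 (2.40-fold) and the IL-6 family cytokine gene Osm (2.27-fold), these 3 near background at 12.6 to 28.8 units in myoblasts. In neurogenic against BIO cellulates 0 of 16 differed by 2-fold. Tnf, Il1b, Csf3 and Cxcl2, genes often induced along with Il6 and Cxcl1, were dim on all arrays. The macrophage growth factor gene Csf1 read 8225, 2858 and 3609 units, with log2 differences of -0.87 and -0.10 in the first and second comparisons.

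NF-kB factors, regulators and targets were represented by 22 of 23 genes. In BIO cellulates against myoblasts 2 of 17 were higher, a share near the 11.2% of all genes, and 0 lower. These were Ikbke (at least 3.13-fold) and Relb, an NF-kB subunit gene (2.14-fold), with a list median log2 difference of 0.00. In neurogenic against BIO cellulates 2 of 16 were higher, beside 4.16% of all genes, and 0 lower. Vcam1, the vascular adhesion molecule gene, was 6.85-fold higher, at 402, 377 and 3497 units on the 3 arrays, and Bcl3, an atypical inhibitor of NF-kB, was at least 4.59-fold higher. The feedback inhibitor gene Nfkbia had log2 differences of 0.56 and -0.34. Against myoblasts 5 of 16 were higher in neurogenic cellulates, beside 12.1% of all genes, led by Vcam1 (10.1-fold), Bcl3 (5.77-fold) and the mitochondrial superoxide dismutase gene Sod2 (3.19-fold), with a list median of 0.50.

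Genes of JAK-STAT3 signalling and C/EBP factors, which relay IL-6 signals, were 12 in number. The kinase gene Jak2 was 2.99-fold higher in BIO cellulates than in myoblasts. It was the 1 gene of 11 to reach 2-fold there, a share near the 11.2% of all genes. Jak1, a further kinase gene of the pathway, was 3.47-fold higher in neurogenic than in BIO cellulates, the 1 gene of 10, beside 4.16% of all genes. Both Jak1 probes were brightest in neurogenic cellulates, at 151 and 76.0 units. Against myoblasts 3 of 11 were higher in neurogenic cellulates, beside 12.1% of all genes, and 0 lower. These were Jak1 (5.41-fold), Jak2 (2.21-fold) and the C/EBP gene Cebpb (2.01-fold). Socs3, the feedback inhibitor that STAT3 induces, had log2 differences of -0.56 and 0.29 in the first and second comparisons, and Stat3 of 0.30 and -0.43.

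Of 25 other acute-phase genes, 14 were compared in the first comparison, with 3 higher, beside 11.2% of all genes, and 0 lower. The copper-carrying plasma protein gene Cp, ceruloplasmin, was 5.39-fold higher in BIO cellulates than in myoblasts and read 242, 826 and 3799 units on the 3 arrays. In neurogenic against BIO cellulates, where Saa3 was higher, 4 of 14 were higher, beside 4.16% of all genes, and 0 lower. The metallothionein gene Mt2 was 7.34-fold higher, the complement gene Cfb at least 5.05-fold and Cp 3.39-fold. Against myoblasts 9 of 17 were at least 2-fold higher in neurogenic cellulates, beside 12.1% of all genes, but 4 of these were dim in myoblasts and passed through the neurogenic array alone. Of the 8 measured on both arrays 5 were higher, beside 9.35% of all genes, and 0 lower. Lcn2, the siderophore-binding lipocalin gene, read 3.30, 6.55 and 37.4 units, with the last alone well above background, and Cfb 4.32, 10.1 and 118. Saa1, the related serum amyloid gene, had log2 differences of 0.10 and 0.16 in the first and second comparisons, and Saa2, Serpina3n, Hpx, Orm1 and Ptx3 were dim throughout.

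Cxcl10 is commonly counted among interferon-stimulated genes, and its probe stayed dim on all arrays, while other genes of that list were measured and higher. In BIO cellulates against myoblasts 6 of 10 were higher, beside 11.2% of all genes, and 1 lower. In neurogenic against BIO cellulates 5 of 10 were higher, beside 4.16%, and 0 lower. Isg15, a ubiquitin-like modifier gene, read 56.4, 426 and 2210 units.

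**Figure D5:**
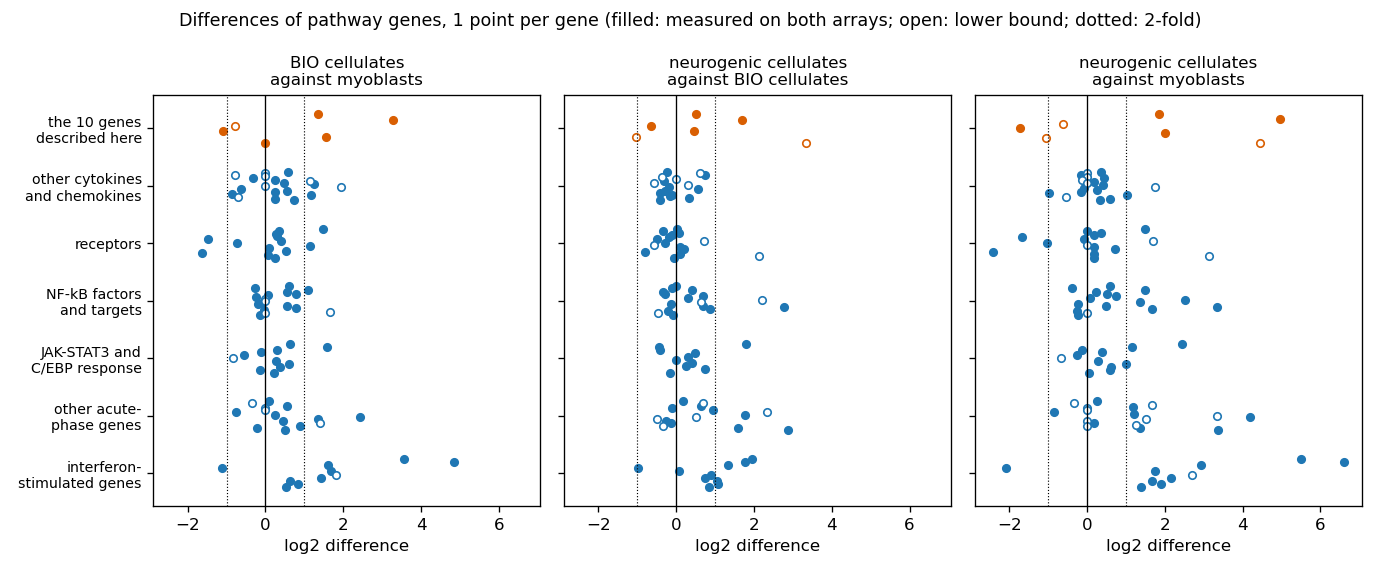
Log2 difference in scaled signal for each compared gene of 7 lists in the 3 comparisons. Filled points were measured on both arrays, open points are lower bounds, and dotted lines mark 2-fold. In the right panel 9 of 17 acute-phase genes and 9 of 10 interferon-stimulated genes lie past 2-fold on the higher side, where 12.1% of all genes do.

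Markers of cell types that make these cytokines were read on the same arrays. The 7 muscle identity genes were well above background on every array, and the muscle creatine kinase gene Ckm was 49.0-fold higher in BIO cellulates than in myoblasts. Of 12 macrophage and leukocyte markers with a probe, 3 were well above background in myoblasts, 4 in BIO cellulates and 5 in neurogenic cellulates. Ptprc, Adgre1, Itgam, Lyz2, Aif1, Tyrobp and Mrc1 were dim on all arrays, while Fcer1g and Cd14 were well above background on each. Csf1r, the receptor gene for macrophage growth factor, was well above background on each array, at 142, 112 and 108 units by its brightest probe. A second Csf1r probe was 2.53-fold higher in BIO and 2.00-fold higher in neurogenic cellulates than in myoblasts. Its brightest and dimmest probes stayed under 2-fold. Compared with myoblasts, the bounds for Spi1 were 2.28-fold higher (BIO cellulates) and 2.30-fold higher (neurogenic cellulates), and that for Laptm5 was 2.69-fold higher in neurogenic cellulates. Against myoblasts, 2 of 5 markers were thus higher and 1 lower (Cd14, 2.20-fold) in neurogenic cellulates, beside 12.1% and 10.0% of all genes. The 2 higher ones, Spi1 and Laptm5, were dim in myoblasts at 11.1 and 16.3 units and passed background only where they were higher. Of the 3 markers measured on both arrays 0 were higher and 1 lower, beside 9.35% and 11.0% of all genes. The summed signal of the list was 13.7, 12.6 and 10.9 times the 75th percentile of the array, most of it from Cd14 and Fcer1g. Of 6 endothelial markers only Vwf was above background, with Pecam1, Cdh5, Kdr, Tek and Emcn dim, and of 5 adipocyte markers Adipoq and Fabp4 were dim while Plin1, Cidec and Lep were well above background on all 3 arrays, with 0 of 3 past 2-fold in any comparison. Among 6 fibroblast markers Pdgfra and Lum were dim, while Dcn, the decorin gene, read 114, 73.8 and 647 units and was 6.47-fold higher in neurogenic than in BIO cellulates. The collagen gene Col1a1 was 2.38-fold lower in BIO and 3.25-fold lower in neurogenic cellulates than in myoblasts, and Col3a1, another collagen gene, was 2.14-fold and 2.64-fold higher. Thy1, the other fibroblast marker, had log2 differences of 0.82 and -0.14 in the first and second comparisons. The summed signals were 494, 273 and 245 times the 75th percentile for fibroblast, 0.481, 0.798 and 0.712 for endothelial and 1.14, 1.13 and 1.11 for adipocyte markers. Most of the fibroblast sum was Col1a1, at 82447, 21987 and 21857 units, so its fall follows that gene. The part of mesenchymal cells in the cytokine differences was not tested. In bulk RNA, fewer cells of a type and less RNA per cell cannot be told apart.

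The genes nearest in pattern were found by the distance between pairs of log2 differences (BIO cellulates minus myoblasts, neurogenic minus BIO cellulates) over 3 arrays, among 10669 genes well above background on all of them. Ccl7 was nearest to the nucleoside transporter gene Slc28a2 (distance 0.27) and to Isg15 (0.38), and 0 genes lay within 0.25. Ccl2 was nearest to Otud1 (0.06) and Asphd2 (0.06), with 35 genes within 0.25. Il6 was nearest to Eef1akmt1 (0.04) and 6530411M01Rik (0.10), with 27 genes within 0.25, and Cxcl12 to the tubulin gene Tuba1c (0.03) and the nucleoporin gene Nup93 (0.03), with 113. Of these 10669 genes, 55 were at least 2-fold higher at both steps, Ccl7 among them.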

How the data were processed

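Agilent Feature Extraction 10.7.3.1 read 3 arrays of design 014868 on 1 slide and wrote a linear intensity per spot after background subtraction, along with median spot and background intensities, per the file headers, which name build mm9. Values in the authors' deposited table are log2 and exceed the scanner's log2 intensity by one constant per array: 0.00 (myoblasts), 0.67 (BIO) and 0.23 (neurogenic), with column medians of 7.42, 7.77 and 7.88. They are not centred by gene, and the origin of the constants is unknown. The constants run opposite to the 75th percentiles, at 181, 115 and 156 units. Differences in the deposited table thus lie near those of percentile scaling, 3.29 beside 3.28 for Ccl7 in the first comparison, so it is not an independent alternative. The labelled dye was Cy3, made from 200 ng of RNA per the labels.

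Control spots and outlier spots were left out, repeat spots were averaged as log2, and each array was scaled to its 75th percentile with numpy 2.4.6 and pandas 2.3.3. Of the probes, 26923 were named by accession through the RefSeq table of GRCm38.p6 and 14251 were not. A gene took its brightest probe over the 3 arrays. A difference counts from 2-fold. Alternatives were median, quantile and spike-in scaling, normexp (limma 3.58.1, offset 50), the deposited table, other filters, probes and thresholds. The genes, the pathway lists and the naming rule (all 10 genes, and up to 3 of each other list per direction) were chosen with earlier results of these data known. The calculation was tested on simulated data. The background limit sets how low a level can be read. The values of a single listed gene are not reported here.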

Additional observations from a re-analysis of the deposited data

How the results depend on the processing

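No paired analysis was possible because each group has 1 array. No single-gene difference of 2-fold or more changed sign under any alternative tried. For the bounds of Saa3 and Il1a this was fixed in advance, except with no filter on dim probes, because a bound is cut at 0. Over all differences of 7 genes, those under 2-fold included, 149 of 184 alternative values lay within the repeat-spot limit of the reported one. Many of these repeat the reported value by construction. A change of filter, probe choice or outlier spots leaves many genes with 1 bright probe as they were. The deposited table is not independent either, so the count does not measure stability. Il1a in BIO cellulates against myoblasts turned from -0.01 to 0.16, 0.18 and 0.20 with the percentile over bright probes, normexp correction and spike-in scaling. For BIO cellulates against myoblasts, the count of higher genes was 1 in place of 3 (Ccl7 alone) at a 3-fold threshold, with median scaling and after normexp correction, and 6 with no filter on dim probes. The count of lower genes was 2 in place of 1 (Cxcl1 joining Cxcl12) at 1.5-fold, with no filter and with median scaling, and 0 at 3-fold, with the percentile taken over bright probes and with spike-in scaling, where Cxcl12 had log2 differences of -0.91 and -0.87. With quantile normalisation the count stayed at 1, but it was Cxcl1, with Cxcl12 at -0.91. For neurogenic against BIO cellulates, the higher count was 1 in place of 2 (without Saa3) in the deposited table and among genes bright on both arrays, and 4 with no filter. The lower count was 2 in place of 1 at 1.5-fold and 0 at 3-fold, with the percentile over bright probes, spike-in scaling, normexp correction, the deposited table and genes bright on both arrays. Il1a was not compared in the last pair of these, being dim in neurogenic cellulates, and had log2 values of -0.89, -0.70 and -0.42 in the 3 before. For neurogenic cellulates against myoblasts, the lower count was 1 in place of 2 (Cxcl12 alone) at 3-fold and under those same 5 settings. The higher count there was 3 in place of 4 (without Saa3) in the deposited table and among genes bright on both arrays. It was 6 with no filter. Spike-in scaling and keeping outlier spots were added after the data were seen. The median over all genes was -0.66 in the first comparison with median scaling, 0.17 with spike-in scaling and 0.14 with the percentile over bright probes, and the first comparison's split of higher and lower genes went from 1440 and 771 to 369 and 3703, 1966 and 512, and 1852 and 550, and to 819 and 811 with quantile normalisation and 300 and 732 after normexp correction. In the second comparison the split went from 510 and 220 to 912 and 91 with spike-in scaling and 658 and 143 with the percentile over bright probes. In the third it went from 1557 and 1291 to 649 and 4998 with median scaling, 2905 and 444 with spike-in scaling, 2266 and 651 with the percentile over bright probes and 523 and 1147 after normexp correction. The causes of these shifts were not tested.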
